A study of Mus musculus with 48 samples.

Results

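The 7 genes Tgfb1, Tgfb2, Tgfbr1, Ankrd1, Amotl2, Ajuba and Lats2 were followed through all 48 RNA-seq libraries of mouse kidney slices kept alive outside the body. They were taken by symbol from a count table of 55487 Ensembl gene IDs, each symbol matched 1 row, and all 7 passed the filter on low counts in every comparison. Both inbred strains used, C57BL/6J and DBA/2J, were represented by males, and the labels name no engineered allele. Each strain had 8 conditions with 3 libraries each. These were untreated control slices, slices given tunicamycin, which blocks N-linked glycosylation, and slices given cyclosporin A, a calcineurin inhibitor toxic to the kidney, each at 6 h and at 24 h, and 2 oxygen conditions. Of the oxygen conditions, normoxia stands in the labels for ischemia, and a switch from normoxia to hyperoxia (normoxia-hyperoxia) stands for reperfusion, both with 24 h in their titles. The sources used here do not give the doses of the drugs, the oxygen held over control slices or when oxygen was switched, nor whether the 3 slices of a group came from separate mice, so p-values measure only the spread between these slices.

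TGF-beta ligands are secreted in a latent form, are released by integrins and proteases, and signal through a type II and a type I receptor kinase to SMAD transcription factors. In the kidney they are best known as drivers of fibrosis and of matrix synthesis after injury. The Hippo pathway is a kinase cascade in which LATS kinases phosphorylate the coactivators YAP and TAZ and keep them out of the nucleus. Free YAP and TAZ bind TEAD factors on DNA and switch on genes for cell shape, matrix and growth, among them feedback inhibitors of YAP itself. Tgfb1 and Tgfb2 encode ligands, and Tgfbr1 encodes the type I receptor. Ankrd1, an ankyrin-repeat protein, and Amotl2, an angiomotin that binds and restrains YAP, are widely used readouts of YAP activity. Ajuba is a LIM protein that binds and inhibits LATS kinases, and Lats2 is one of those kinases and itself a YAP target.

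On GRCm38 (GENCODE M21) the ligand genes lay at chr7:25687002-25705077 on the plus strand for Tgfb1 (ENSMUSG00000002603) and at chr1:186622792-186705989 on the minus strand for Tgfb2 (ENSMUSG00000039239). Tgfbr1 (ENSMUSG00000007613) lay at chr4:47353222-47414931, plus strand. Ankrd1 (ENSMUSG00000024803) lay at chr19:36111961-36120099, minus strand, and Amotl2 (ENSMUSG00000032531) at chr9:102716672-102733418, plus strand. Ajuba (ENSMUSG00000022178) lay at chr14:54567472-54577558 and Lats2 (ENSMUSG00000021959) at chr14:57689662-57758388, both on the minus strand. The exons of Lats2 share 2955 bases with Gm49361, a protein-coding model on the same strand, so counting could have split or dropped reads of Lats2. The row of Gm49361 held 316 to 1731 counts per library, 0.573 to 0.71 times those of Lats2. Its log2 change under normoxia against 24 h controls was -1.12 (SE 0.0789), beside -0.96 (SE 0.073) for Lats2. The exons of Tgfb2 share 124 bases with the antisense gene Gm29491.

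A library held between 5619309 and 25137581 counts. The lowest total belonged to DBA/2J normoxia-hyperoxia replicate 2, and the next lowest was 12384733. Genes of the mitochondrial genome took 3.11% to 25.6% of the counts. Levels are in CPM, the usual scaling of counts to the same total in every library, as mean ± SD over 3 libraries. Log2 fold changes with their standard error (SE) come from edgeR's quasi-likelihood test, with TMM scaling (trimmed mean of M-values). Whether libraries or groups overlapped or stood apart was read from CPM without TMM scaling, so it can differ from the test. A gene is said to have risen, fallen or changed where its Benjamini-Hochberg adjusted p over all genes tested was under 0.05. The slices are bulk tissue, so fewer cells of a type and less RNA per cell cannot be told apart.

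Because several members rose and fell together, the promoters that RefSeq (GRCm38.p6) gives for them were searched for the TEAD core GGAATG on both strands, from 250 bases before to 50 bases after the start site. All 7 symbols had an entry, Tgfbr1 and Lats2 with 2 start sites each. A match stood in the promoters of Ankrd1 (2 matches), Ajuba (2), Amotl2 (1) and Lats2 (1, at its first listed start), and in none of Tgfb1, Tgfb2 and Tgfbr1. Of all 32841 promoters in the table, 14.7% held at least 1 match and 1.36% held 2 or more. The 250 bases before the start site are printed 5′ to 3′ on the gene's strand for the 3 members whose matches lie there and for Tgfb1, whose levels ran close to theirs without a match. Capitals mark the core or its reverse complement.
Ankrd1, chr19:36119845-36120094, minus strand: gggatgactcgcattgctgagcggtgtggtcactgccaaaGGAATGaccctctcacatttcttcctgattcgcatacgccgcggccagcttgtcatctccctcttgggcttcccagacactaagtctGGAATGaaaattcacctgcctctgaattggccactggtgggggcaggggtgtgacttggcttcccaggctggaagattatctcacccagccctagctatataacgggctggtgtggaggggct
Ajuba, chr14:54577662-54577911, minus strand: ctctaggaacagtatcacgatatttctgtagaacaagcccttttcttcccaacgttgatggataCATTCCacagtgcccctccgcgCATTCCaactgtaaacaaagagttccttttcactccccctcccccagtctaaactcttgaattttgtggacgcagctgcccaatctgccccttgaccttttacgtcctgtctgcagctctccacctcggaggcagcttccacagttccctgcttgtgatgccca
Amotl2, chr9:102717554-102717803, plus strand: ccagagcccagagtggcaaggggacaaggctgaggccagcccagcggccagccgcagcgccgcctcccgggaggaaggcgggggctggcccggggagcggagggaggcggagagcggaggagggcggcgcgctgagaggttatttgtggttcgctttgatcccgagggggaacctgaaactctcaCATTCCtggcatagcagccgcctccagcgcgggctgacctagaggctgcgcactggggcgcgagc
Tgfb1, chr7:25686752-25687001, plus strand: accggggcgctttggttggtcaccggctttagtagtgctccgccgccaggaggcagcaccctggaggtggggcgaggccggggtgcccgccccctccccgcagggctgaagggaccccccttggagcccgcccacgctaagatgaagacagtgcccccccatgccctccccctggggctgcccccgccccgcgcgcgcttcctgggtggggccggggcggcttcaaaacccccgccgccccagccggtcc

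The matches began 210 and 123 bases before the start of Ankrd1, 186 and 164 bases before that of Ajuba and 65 bases before that of Amotl2. The match of Lats2 lay at bases 5 to 10 after its start, where the strand reads gacgcccgtGGAATGccaacaatg. The AP-1 motif TGANTCA, searched on both strands, had no match in any member and stood in 7.81% of all promoters. The short SMAD core CAGAC stood in 49.6% of all promoters and matched in Tgfb2 (2), Ankrd1 (2), Ajuba (1), Lats2 (1) and the second start of Tgfbr1 (1), and 1 of the matches in Ankrd1 overlapped a TEAD match. These are matches of letters only. No binding was measured.

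Over the 16 groups the members differed widely in how much their level moved. The highest group mean was 144 times the lowest for Ankrd1, 11.6 times for Tgfb2, 4.89 times for Amotl2, 4.83 times for Ajuba, 3.94 times for Tgfb1, 2.87 times for Lats2 and 1.59 times for Tgfbr1. For Tgfb1, Ankrd1, Amotl2, Ajuba and Lats2 the highest group mean was that of a 24 h control or cyclosporin A group and the lowest that of a normoxia group. Tgfb2 and Tgfbr1 instead peaked under normoxia-hyperoxia in C57BL/6J, at 27.5 ± 9.70 CPM and 64.5 ± 6.28 CPM (SD, n = 3). Most neighbours in each gene's order of groups overlapped: of the 15 neighbouring pairs, 4 stood apart with no overlap between libraries for Amotl2, 2 each for Tgfb2, Ajuba and Lats2, and 1 each for Tgfb1, Tgfbr1 and Ankrd1. For Ankrd1 the single gap lay between DBA/2J control at 6 h (49.7 ± 6.32 CPM) and C57BL/6J normoxia (2.45 ± 1.29 CPM, SD, n = 3). For Ajuba one gap lay between DBA/2J tunicamycin at 24 h (119 ± 10.4 CPM) and DBA/2J control at 6 h (53.2 ± 7.04 CPM, SD, n = 3).

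**Figure D1:**
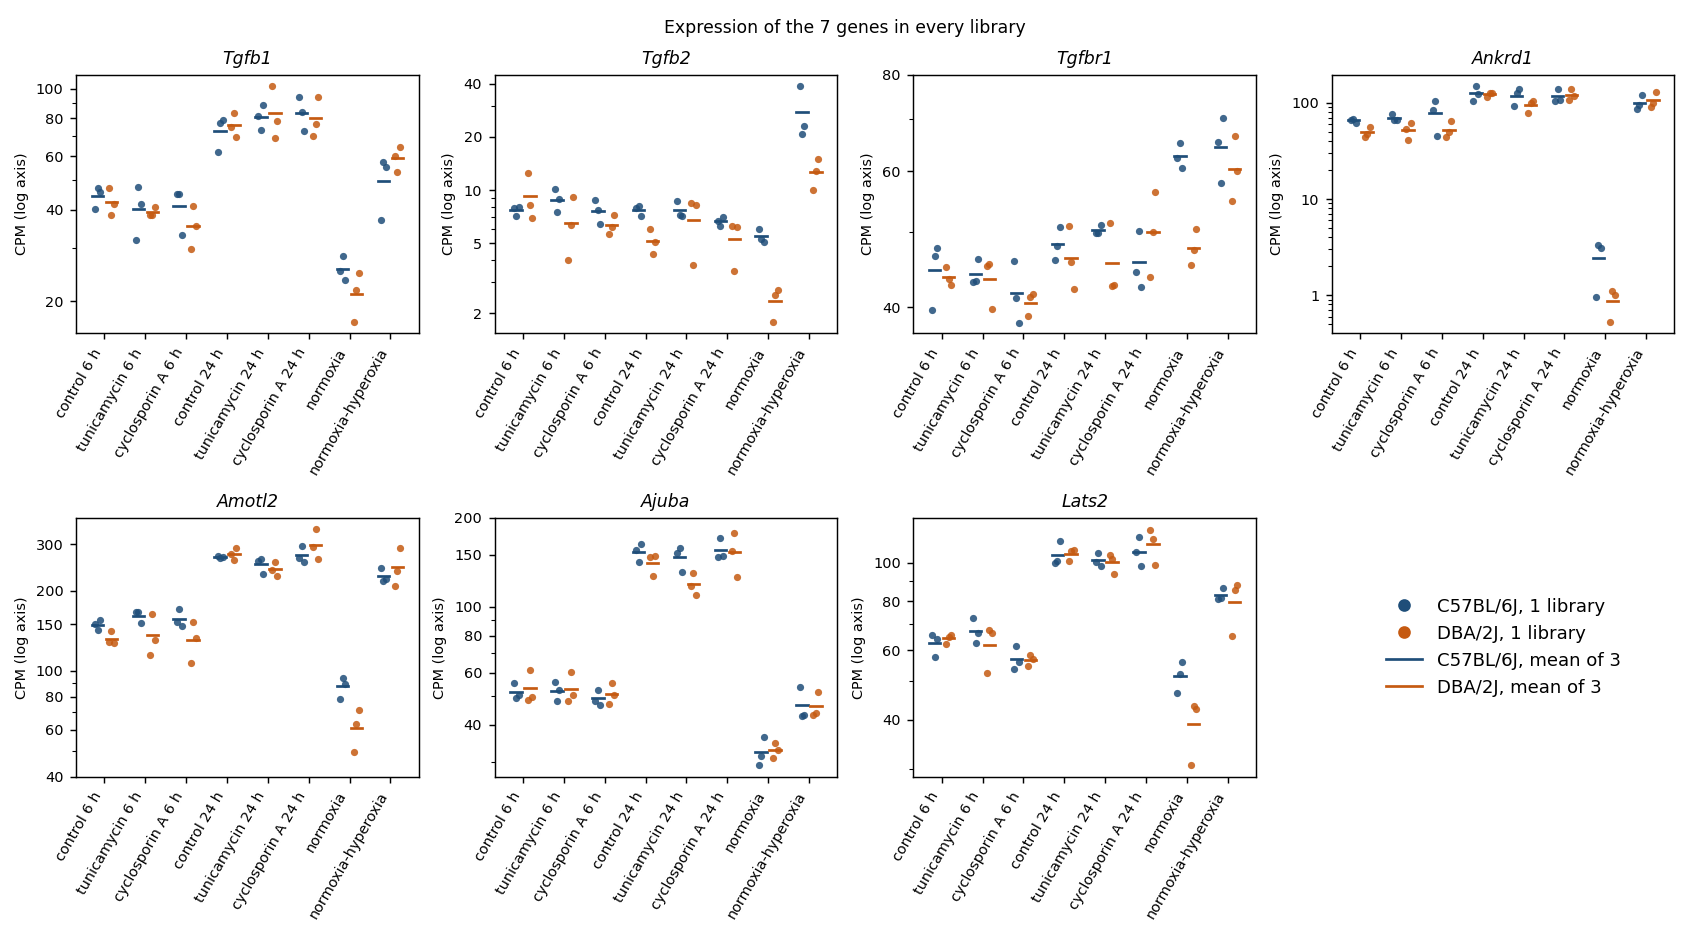
CPM (log axis) of each of the 7 genes in all 48 libraries, by condition. Points are libraries, short lines are means of 3, blue is C57BL/6J and orange DBA/2J. Ankrd1 lies between 0.53 and 3.32 CPM under normoxia and at 40.7 CPM or more elsewhere, and Tgfb2 is highest under normoxia-hyperoxia.

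Per kilobase of exon, a scale that allows genes to be compared, the C57BL/6J 24 h controls held 43.7 CPM of Ankrd1, 42.7 of Amotl2 and 42.1 of Ajuba. Lats2 stood at 15.1, Tgfb1 at 14.4, Tgfbr1 at 7.39 and Tgfb2 at 1.33 CPM per kilobase. Ankrd1, Amotl2 and Ajuba thus lay at near equal levels there, the kinase gene Lats2 lay lower as counted, and Tgfb2 was the scarcest member. The value of Lats2 may lack reads from the exon bases it shares with Gm49361. Under normoxia in the same strain the order of means differed, with Amotl2 at 13.9, Tgfbr1 at 9.60, Ajuba at 8.87, Lats2 at 7.40, Tgfb1 at 5.07, Tgfb2 at 0.943 and Ankrd1 at 0.848 CPM per kilobase. The order of Tgfb2 (SD 0.0885) and Ankrd1 (SD 0.448) is not settled by these spreads. Nor is that of Tgfbr1 (SD 0.360) and Ajuba (SD 0.992).

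Controls at 24 h were first compared with controls at 6 h. With the longer culture Tgfb1, Ankrd1, Amotl2, Ajuba and Lats2 rose, Tgfb2 fell, and Tgfbr1 did not pass the test. These 6 calls among 7 members stand beside 72% of all genes tested, of which 48.1% were higher (60.4% when libraries were scaled by their totals only, which moved the median of all genes from -0.02 to 0.19). Ajuba had the largest rise of the members. Its libraries held 55.4, 49.2 and 50.4 CPM at 6 h and 155, 142 and 163 CPM at 24 h in C57BL/6J. In DBA/2J they held 48.6, 61.3 and 49.7 CPM at 6 h and 147, 127 and 149 CPM at 24 h. Every 24 h library was above every 6 h library of its strain. The log2 change was 1.27 (SE 0.0745, edgeR adjusted p = 1.9e-09), a 2.42-fold rise.

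Ankrd1 rose too, with a log2 change of 0.91 (SE 0.0875, edgeR adjusted p = 2.73e-07). It held 66.8, 68.2 and 62.3 CPM at 6 h and 106, 149 and 124 CPM at 24 h in C57BL/6J, and 44.6, 47.7 and 56.8 CPM against 114, 128 and 128 CPM in DBA/2J. The groups did not overlap in either strain. Amotl2 rose by 0.74 (SE 0.0565), Tgfb1 by 0.56 (SE 0.0796) and Lats2 by 0.52 (SE 0.0545) on the log2 scale, with edgeR adjusted p of at most 1.61e-05. In both strains 5 members had all 24 h libraries beyond all 6 h libraries, against 55.8% of all genes. The ligand gene Tgfb2 went the other way, by -0.63 (SE 0.143, edgeR adjusted p = 0.00109). Its values overlapped in C57BL/6J (log2 change -0.26, SE 0.201, edgeR adjusted p = 0.278) and not in DBA/2J, where 12.6, 8.23 and 6.92 CPM at 6 h stood against 5.98, 4.36 and 5.07 CPM at 24 h. The strain difference in this change did not pass the test (log2 -0.74, SE 0.286, edgeR adjusted p = 0.28). Tgfbr1 moved by -0.12 (SE 0.068, edgeR adjusted p = 0.14), and by 0.10 when libraries were scaled by totals only. Without C57BL/6J control replicate 1 at 6 h it passed as lower, at -0.16 (edgeR adjusted p = 0.0269).

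The wider pathways did not all follow the members over culture time, and calls in the lists stand beside 72% of all genes tested. Of 14 genes for other ligands, receptors, latency proteins and activators of TGF-beta, 10 fell and 2 rose. Itgb8, an integrin subunit that activates latent TGF-beta, fell by 2.12 on the log2 scale (SE 0.14), and the latency binding proteins Ltbp1 and Ltbp4 fell by 1.69 (SE 0.134) and 1.61 (SE 0.123). Among 15 known TGF-beta targets 6 rose and 6 fell. Cdkn2b, a cell cycle inhibitor, rose by 2.52 (SE 0.186), and Timp1, an inhibitor of matrix proteases, by 2.26 (SE 0.294). The collagen genes Col1a1, Col1a2 and Col3a1 moved by -2.22 (SE 0.534), -1.62 (SE 0.271) and -1.52 (SE 0.365). Of 13 SMADs and regulators 7 rose and 2 fell, with Smurf1 at 0.92 (SE 0.0991) and Smad6 at -0.88 (SE 0.118). Of 17 tested YAP targets 8 rose and 5 fell, with Ccn2, a matricellular protein also in the TGF-beta list, at 1.49 (SE 0.0958) and Nt5e at -1.49 (SE 0.149). Of 21 other Hippo pathway genes 11 rose and 8 fell, among them the TEAD factor gene Tead4 at 1.74 (SE 0.197) and the FERM-domain gene Frmd6 at 1.18 (SE 0.0814), with the angiomotin gene Amot at -0.99 (SE 0.0852) and Tead3 at -0.86 (SE 0.103). The median log2 change was -0.72 for the ligand and receptor list, 0.45 for SMADs and regulators, 0.37 for TGF-beta targets, 0.25 for YAP targets and 0.28 for the Hippo list, against -0.02 over all genes.

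Normoxia, the labelled ischemia model, went with lower levels of most members. Against 24 h controls 6 members fell and Tgfbr1 rose, 7 of 7 calls beside 82% of all genes tested. Of all called genes 51.6% were higher (41.5% with totals only, which moved the median of all genes from 0.05 to -0.22), so a call in itself does not set the members apart. Ankrd1 was nearly lost. Its libraries held 106, 149 and 124 CPM in C57BL/6J controls and 0.96, 3.32 and 3.06 CPM under normoxia. In DBA/2J they held 114, 128 and 128 CPM in controls and 0.53, 1.09 and 1.01 CPM under normoxia. These low values rest on 13 to 67 counts per library. The log2 change was -6.16 (SE 0.221, edgeR adjusted p = 2.3e-10), a 71.5-fold lower level, and the groups were far apart in both strains.

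Amotl2 held 271, 265 and 269 CPM in C57BL/6J controls and 78.6, 94.3 and 89.3 CPM under normoxia, and in DBA/2J 275, 261 and 289 CPM against 49.3, 62.8 and 71.4 CPM. No library of one condition reached the other. The log2 change was -1.62 (SE 0.0734, edgeR adjusted p = 7.22e-12). Ajuba fell from 155, 142 and 163 CPM to 29.3, 31.4 and 36.3 CPM in C57BL/6J, and from 147, 127 and 149 CPM to 30.9, 34.7 and 32.8 CPM in DBA/2J. Its log2 change was -1.90 (SE 0.0646, edgeR adjusted p = 2.64e-13), again without overlap. Lats2, the kinase of the same pathway, held 100.2, 101 and 114 CPM against 46.8, 52.1 and 55.9 CPM in C57BL/6J and 101, 107 and 108 CPM against 30.7, 43.4 and 42.6 CPM in DBA/2J. It fell by 0.96 on the log2 scale (SE 0.073, edgeR adjusted p = 4.22e-09), with no overlap.

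Of the ligands, Tgfb1 held 62.0, 77.0 and 78.7 CPM in C57BL/6J controls and 25.1, 28.1 and 23.5 CPM under normoxia. In DBA/2J it held 74.9, 83.0 and 69.3 CPM against 17.2, 21.7 and 24.7 CPM. The groups did not overlap, and the log2 change was -1.40 (SE 0.0861, edgeR adjusted p = 3.86e-10). Tgfb2 moved less, by -0.54 (SE 0.129, edgeR adjusted p = 0.00114), from 7.86, 8.16 and 7.11 CPM to 6.04, 5.30 and 5.05 CPM in C57BL/6J and from 5.98, 4.36 and 5.07 CPM to 1.80, 2.55 and 2.73 CPM in DBA/2J. Its groups did not overlap within either strain, although within C57BL/6J the edgeR adjusted p was 0.149. Tgfbr1, the receptor gene, rose by 0.48 (SE 0.0554, edgeR adjusted p = 6.24e-07). In C57BL/6J its 62.4, 65.3 and 60.6 CPM lay above the controls' 46.04, 47.98 and 50.8 CPM, and in DBA/2J its 45.3, 47.5 and 50.5 CPM overlapped the controls' 51.0, 45.8 and 42.2 CPM. All libraries were separate in both strains for 6 members, against 65.9% of all genes.

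**Figure D2:**
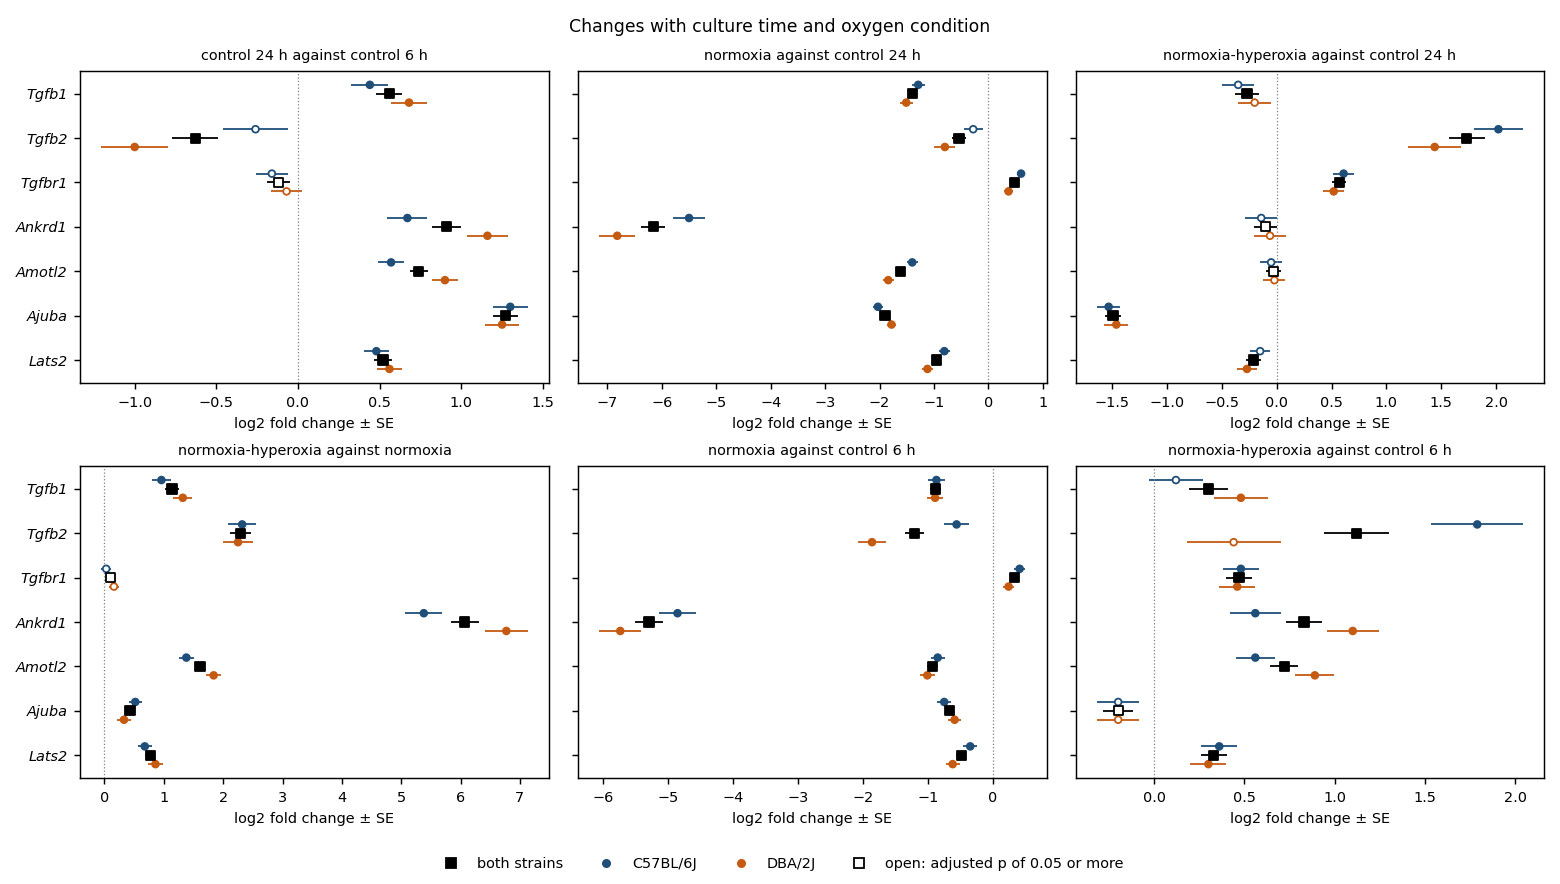
Log2 fold change with its standard error for the 7 genes in the comparisons of culture time and oxygen condition, each panel on its own scale. Squares are the mean over both strains, circles single strains, and open symbols did not pass the adjusted threshold of 0.05. Ankrd1 lies at -6.16 in normoxia against 24 h controls and at -0.10 in normoxia-hyperoxia against the same controls.

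Most lists of the wider pathways were mainly lower under normoxia against 24 h controls, and SMAD and YAP lists had few exceptions. Of all genes tested 82% were called. The called share was 92.3% for SMADs and regulators, 94.1% for YAP targets, 90.5% for the Hippo list and 85.7% for ligands and receptors. Of 13 SMADs and their regulators 11 fell and 1 rose, with Tgif1, a corepressor of SMADs, at -3.12 (SE 0.0954), Smad3 at -2.20 (SE 0.0654), the ubiquitin ligase gene Smurf1 at -2.13 (SE 0.0684) and the inhibitory Smad6 at 1.14 (SE 0.102). Among TGF-beta targets 9 of 15 fell and 0 rose, so 60% were called, a smaller share than over all genes. Timp1 was at -5.32 (SE 0.246) and Ccn2 at -3.62 (SE 0.139). Among YAP targets 15 of 17 fell, with the matricellular gene Ccn1 at -4.50 (SE 0.247), the tissue factor gene F3 at -4.28 (SE 0.0684) and the stress gene Gadd45a at -3.82 (SE 0.133). Nt5e, which encodes the ectonucleotidase CD73, was the single YAP target that rose, by 2.54 (SE 0.163). Of the Hippo list 15 of 21 fell and 4 rose, with Frmd6 at -3.01 (SE 0.0854), Tead4 at -2.79 (SE 0.127), Tead1 at -2.09 (SE 0.0661) and the angiomotin gene Amot at 0.81 (SE 0.071). The ligand and receptor list was split, 6 higher and 6 lower, from Itgb8 at 1.68 (SE 0.124) to Lrrc32, which displays latent TGF-beta on cells, at -3.35 (SE 0.0967). Median log2 changes were -1.16 for SMADs and regulators, -1.74 for TGF-beta targets, -1.42 for YAP targets, -0.77 for the Hippo list and -0.08 for ligands and receptors, against 0.05 over all genes.

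**Figure D3:**
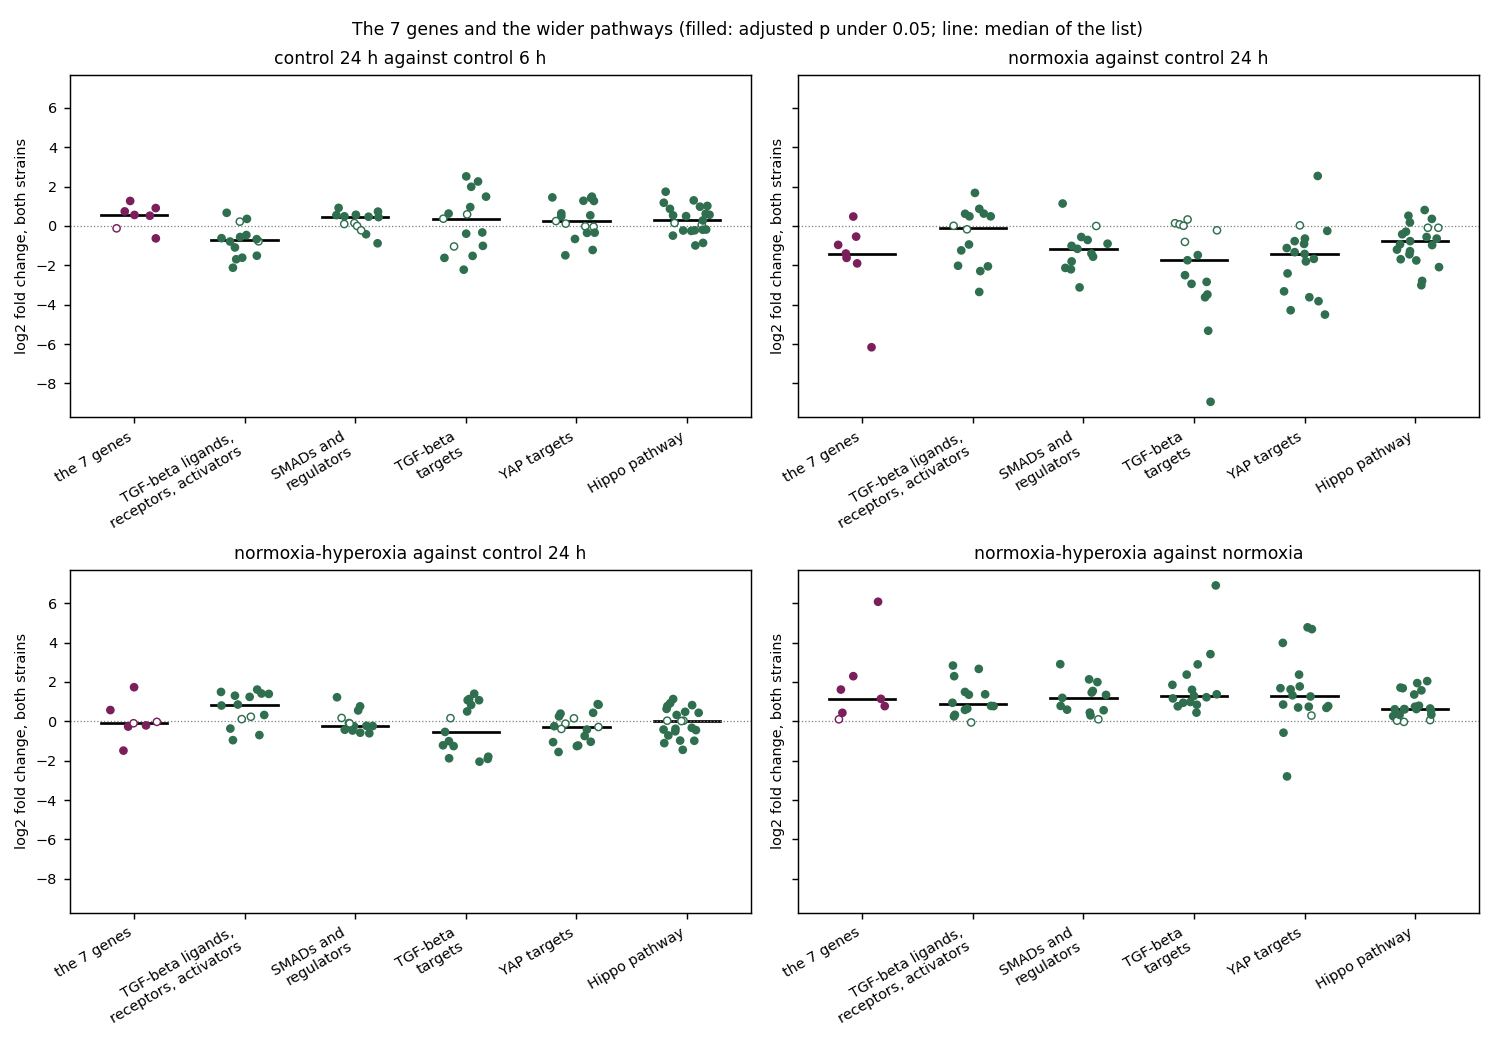
Log2 fold change over both strains (vertical axis) of the 7 genes and of each gene in 5 pathway lists (horizontal axis), in 4 comparisons. Filled points passed the adjusted threshold, open points did not, and the line is the list's median. In normoxia-hyperoxia against normoxia nearly every point lies above 0, with Nt5e at -2.80 as the lowest.

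Markers of the cell types in a slice moved with the same conditions. The summed level of 6 proximal tubule markers was 341 to 1720 CPM in the 24 h controls, 4212 to 11922 CPM under normoxia and 129 to 784 CPM under normoxia-hyperoxia. For 4 smooth muscle markers the ranges were 199 to 323, 38.7 to 197 and 142 to 281 CPM, and for 6 fibroblast markers 123 to 175, 48.8 to 169 and 108 to 214 CPM, in the same order. The 5 endothelial markers summed to 571 to 1319, 291 to 819 and 933 to 1314 CPM, the 4 podocyte markers to 620 to 1353, 435 to 1012 and 1064 to 1965 CPM, and the 6 distal nephron markers to 2388 to 5553, 4405 to 17217 and 12781 to 20928 CPM. The tubule and podocyte markers were thus present, as the kidney label says. Under normoxia against 24 h controls 6 of 6 proximal tubule and 6 of 6 distal nephron markers rose, and 3 of 4 smooth muscle, 3 of 4 podocyte and 2 of 6 fibroblast markers fell. Of 5 endothelial markers 2 rose and 2 fell, and of 5 immune markers 3 rose and 1 fell. These calls stand beside 82% of all genes tested. Under normoxia-hyperoxia against 24 h controls 6 of 6 distal nephron, 4 of 4 podocyte and 4 of 5 immune markers rose, and 4 of 6 proximal tubule markers fell. Of smooth muscle and of fibroblast markers 2 rose and 1 fell each, and of endothelial markers 3 rose and 1 fell. The share of all genes called was 68.2%. The 5 immune markers summed to 118 to 198 CPM in 24 h controls, 103 to 162 CPM under normoxia and 136 to 320 CPM under normoxia-hyperoxia. Over culture time 6 of 6 proximal tubule, 6 of 6 distal nephron, 4 of 4 podocyte and 4 of 6 fibroblast markers fell, beside 72% of all genes called. Of smooth muscle markers 1 rose and 2 fell, and of endothelial and of immune markers 1 rose and 3 fell each. Acta2 and Tagln of the smooth muscle list and Col1a1 and Col1a2 of the fibroblast list are also in the TGF-beta target list. The sum of 6 striated muscle markers, of a tissue known for high Ankrd1, was at most 8.22 CPM in any library. The part of these shifts in the members' changes was not tested.

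In normoxia-hyperoxia, the labelled reperfusion model, the members parted. Against 24 h controls Tgfb2 and Tgfbr1 rose, Ajuba, Tgfb1 and Lats2 fell, and Ankrd1 and Amotl2 did not pass the test. These 5 calls stand beside 68.2% of all genes tested, of which 50% were higher (39% with totals only, which moved the median of all genes from 0.00 to -0.17). Tgfb2 held 38.7, 20.9 and 23.03 CPM in C57BL/6J slices, above the controls' 7.86, 8.16 and 7.11 CPM. In DBA/2J it held 10.1, 12.8 and 14.997 CPM, above 5.98, 4.36 and 5.07 CPM. The groups did not overlap, and the log2 change was 1.73 (SE 0.164, edgeR adjusted p = 4.31e-07), a 3.32-fold rise. Tgfbr1 rose by 0.57 (SE 0.0656, edgeR adjusted p = 2.03e-06), with 65.4, 57.8 and 70.3 CPM in C57BL/6J and 54.8, 66.6 and 59.99 CPM in DBA/2J, all above their controls.

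Ajuba stayed low at 53.5, 42.9 and 43.3 CPM in C57BL/6J and 43.3, 43.96 and 51.6 CPM in DBA/2J, below all 24 h controls. Its log2 change was -1.49 (SE 0.0761, edgeR adjusted p = 3.81e-10). Ankrd1, in contrast, held 87.3, 94.6 and 119.7 CPM in C57BL/6J and 90.4, 101 and 129 CPM in DBA/2J, which overlapped the controls. Its log2 change was -0.10 (95% interval -0.34 to 0.14, edgeR adjusted p = 0.421). Amotl2 held 243, 218 and 222 CPM and 209, 237 and 289 CPM, with a log2 change of -0.03 (95% interval -0.20 to 0.13, edgeR adjusted p = 0.698). Under scaling by totals only both passed as lower, Ankrd1 at -0.27 (edgeR adjusted p = 0.0434) and Amotl2 at -0.20 (edgeR adjusted p = 0.0212). Lats2 fell by 0.21 on the log2 scale (SE 0.0656, edgeR adjusted p = 0.011). In CPM, which uses totals only, all its normoxia-hyperoxia libraries lay below the 24 h controls. With TMM over all 48 libraries its mean log2 CPM was 6.47 against 6.59 in controls of C57BL/6J. In DBA/2J it was 6.26 against 6.54.

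Tgfb1 was at 36.9, 57.2 and 55.4 CPM in C57BL/6J and 59.9, 53.0 and 64.2 CPM in DBA/2J, each below the 24 h controls of its own strain. Its log2 change of -0.27 (SE 0.105, edgeR adjusted p = 0.0329) no longer passed when any 1 of 6 libraries was left out. These were C57BL/6J control replicates 2 (edgeR adjusted p = 0.067) and 3 (edgeR adjusted p = 0.065), DBA/2J control replicate 2 (edgeR adjusted p = 0.0739), C57BL/6J normoxia-hyperoxia replicate 1 (edgeR adjusted p = 0.0518), and DBA/2J normoxia-hyperoxia replicates 1 (edgeR adjusted p = 0.0523) and 2 (edgeR adjusted p = 0.0774). Without the last, the shallowest library, 4 members passed, and the log2 changes of the other 6 members moved by little, to 1.73 for Tgfb2 and -1.47 for Ajuba, for example. In both strains 5 members had separate groups in this comparison, against 50.9% of all genes.

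In the pathway lists against 24 h controls, calls stand beside 68.2% of all genes tested. There 9 of 14 ligand and receptor genes rose and 3 fell. Itgb8 was at 1.61 (SE 0.158), the coreceptor gene Eng at 1.49 (SE 0.141) and Ltbp3 at 1.41 (SE 0.0891). TGF-beta targets were split, 6 higher and 8 lower, with the transcription factor genes Snai1 at 1.40 (SE 0.125) and Snai2 at 1.13 (SE 0.172), and Timp1 at -1.91 (SE 0.263) and Cdkn2b at -1.88 (SE 0.153). Of YAP targets 5 rose and 8 fell, among them Nuak2, a kinase gene, at 0.87 (SE 0.139), Ccdc80 at 0.84 (SE 0.118), the membrane repair gene Myof at -1.56 (SE 0.0782) and Ccn2 at -1.26 (SE 0.102). Of the Hippo list 8 rose and 10 fell, with Tead3 at 1.13 (SE 0.109), Yap1 at 0.92 (SE 0.0743) and Tead4 at -1.45 (SE 0.117). SMADs and regulators held 3 higher and 7 lower. List medians were 0.82, -0.54, -0.29, 0.01 and -0.23 in that order, against 0.00 over all genes. The median of the 7 members was -0.10, after -1.40 under normoxia.

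Compared directly with normoxia, normoxia-hyperoxia held more of 6 members, and Tgfbr1 did not pass the test (log2 0.10, SE 0.0579, edgeR adjusted p = 0.145, and 0.19 with edgeR adjusted p = 0.0177 under totals only). The 6 calls stand beside 73.5% of all genes, and 37% of all genes were called higher. Both groups are the same libraries as above. The log2 difference of Ankrd1 was 6.07 (SE 0.238, edgeR adjusted p = 7.17e-10), or 67.4-fold. Tgfb2 followed at 2.29 (SE 0.173, edgeR adjusted p = 3.24e-08), Amotl2 at 1.61 (SE 0.0911, edgeR adjusted p = 3.66e-10) and Tgfb1 at 1.14 (SE 0.114, edgeR adjusted p = 5.81e-07). Lats2 was higher by 0.77 (SE 0.0869) and Ajuba by 0.43 (SE 0.0773), with edgeR adjusted p of at most 0.000132. For all 6, every normoxia-hyperoxia library exceeded every normoxia library of its strain, against 53.8% of all genes whose groups were separate in either direction.

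The lists moved the same way, beside 73.5% of all genes called and 37% called higher. Of ligands and receptors 13 of 14 were higher, of SMADs and regulators 12 of 13, of TGF-beta targets 15 of 15, of YAP targets 14 of 17 with 2 lower, and of the Hippo list 18 of 21. Their medians were 0.86, 1.19, 1.29, 1.26 and 0.62 on the log2 scale, against 0.02 over all genes. Ccn1 was higher by 4.77 (SE 0.247), F3 by 4.68 (SE 0.121) and Gadd45a by 3.98 (SE 0.167). Thbs1, a thrombospondin that activates latent TGF-beta, was higher by 2.83 (SE 0.106), and Wwtr1, which encodes TAZ, by 1.71 (SE 0.0695). Markers moved too: 4 of 4 smooth muscle, 4 of 4 podocyte, 4 of 5 endothelial and 4 of 5 immune markers were higher and 6 of 6 proximal tubule markers lower, and their part in the result was not tested. The YAP targets that were lower were Nt5e at -2.80 (SE 0.138) and Fjx1 at -0.58 (SE 0.144).

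Since control levels changed with culture time, the oxygen groups were also set against the 6 h controls, a comparison added after the levels had been seen. It shares the 6 h controls with the comparison of culture time and the oxygen libraries with those above. Under normoxia 6 members were below the 6 h controls and Tgfbr1 above, 7 of 7 beside 65.8% of all genes. The log2 changes were -5.29 (SE 0.216) for Ankrd1, -1.21 (SE 0.145) for Tgfb2, -0.93 (SE 0.078) for Amotl2, -0.88 (SE 0.0883) for Tgfb1, -0.67 (SE 0.0744) for Ajuba, -0.49 (SE 0.0778) for Lats2 and 0.33 (SE 0.0617) for Tgfbr1. Each had an edgeR adjusted p of at most 0.000284, and all 7 had separate groups in both strains, against 44.6% of all genes. Of TGF-beta targets 15 of 15 were below the 6 h controls, and of YAP targets 15 of 17. In the same comparison 6 of 6 fibroblast, 4 of 4 smooth muscle, 5 of 5 endothelial and 4 of 4 podocyte markers fell, Acta2, Tagln, Col1a1 and Col1a2 of the target list among them, and 4 of 6 proximal tubule markers rose. Their part in the result was not tested.

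Under normoxia-hyperoxia 6 members were above the 6 h controls, beside 44.9% of all genes called and 22.4% called higher. Tgfb2 was higher by 1.12 (SE 0.182, edgeR adjusted p = 0.000286), Ankrd1 by 0.83 (SE 0.102, edgeR adjusted p = 1.52e-05) and Amotl2 by 0.72 (SE 0.0763, edgeR adjusted p = 3.73e-06). Tgfbr1 was higher by 0.47 (SE 0.0698) and Lats2 by 0.33 (SE 0.0706). Tgfb1 was higher by 0.30 (SE 0.106, edgeR adjusted p = 0.0314), a call lost in 8 of the fits that left out 1 library, with edgeR adjusted p up to 0.0846 without C57BL/6J normoxia-hyperoxia replicate 2. Ajuba alone was not called, at -0.20 (SE 0.0828, edgeR adjusted p = 0.0665). It passed as lower without DBA/2J control replicate 1 (edgeR adjusted p = 0.0474), C57BL/6J normoxia-hyperoxia replicate 1 (edgeR adjusted p = 0.0222) or DBA/2J normoxia-hyperoxia replicate 3 (edgeR adjusted p = 0.039). Groups were separate in both strains for 3 members, against 25.4% of all genes. In this comparison 6 of 6 proximal tubule and 3 of 6 fibroblast markers fell and 5 of 5 immune markers rose, and their part in the result was not tested.

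The drugs moved the members little. At 24 h of tunicamycin 0 of 7 members passed, beside 1.38% of all genes tested. Amotl2 was nearest, at 260, 264 and 231 CPM in C57BL/6J and 239, 257 and 227 CPM in DBA/2J. All of these lay below the 24 h controls of their strain, which held for 3.16% of all genes in either direction, and the log2 difference was -0.14 (SE 0.0488, unadjusted p = 0.0144, edgeR adjusted p = 0.22). Ajuba stood at -0.15 (SE 0.0633, unadjusted p = 0.0377, edgeR adjusted p = 0.347). Its 152, 158 and 131 CPM in C57BL/6J and 118, 130 and 110 CPM in DBA/2J overlapped the controls of both strains. The interval for Tgfb1 was -0.07 to 0.36 and that for Tgfb2 -0.21 to 0.61 on the log2 scale (95%), so changes within these bounds could not be told from 0.

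At 6 h of tunicamycin, 6 h of cyclosporin A and 24 h of cyclosporin A, 0 of 7 members and 0% of all genes passed in edgeR's quasi-likelihood test. Unadjusted p was under 0.05 for 281, 734 and 1107 genes in that order, none of them members, and DESeq2 called 0, 45 and 22 genes. No member had separate groups in both strains there, beside 0.139%, 0.744% and 1.05% of all genes. Over all 4 drug comparisons the members' log2 differences lay between -0.25, for Tgfb2 at 6 h of cyclosporin A, and 0.20, for Ankrd1 in the same comparison and Tgfb2 at 24 h of tunicamycin. The widest 95% intervals were those of Tgfb2, from -0.58 to 0.27 at 6 h of tunicamycin. Ankrd1 at 6 h of cyclosporin A was widely spread in C57BL/6J, with 83.6, 105 and 45.4 CPM. In the pathway lists 0 genes passed for either drug at either time.

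**Figure D4:**
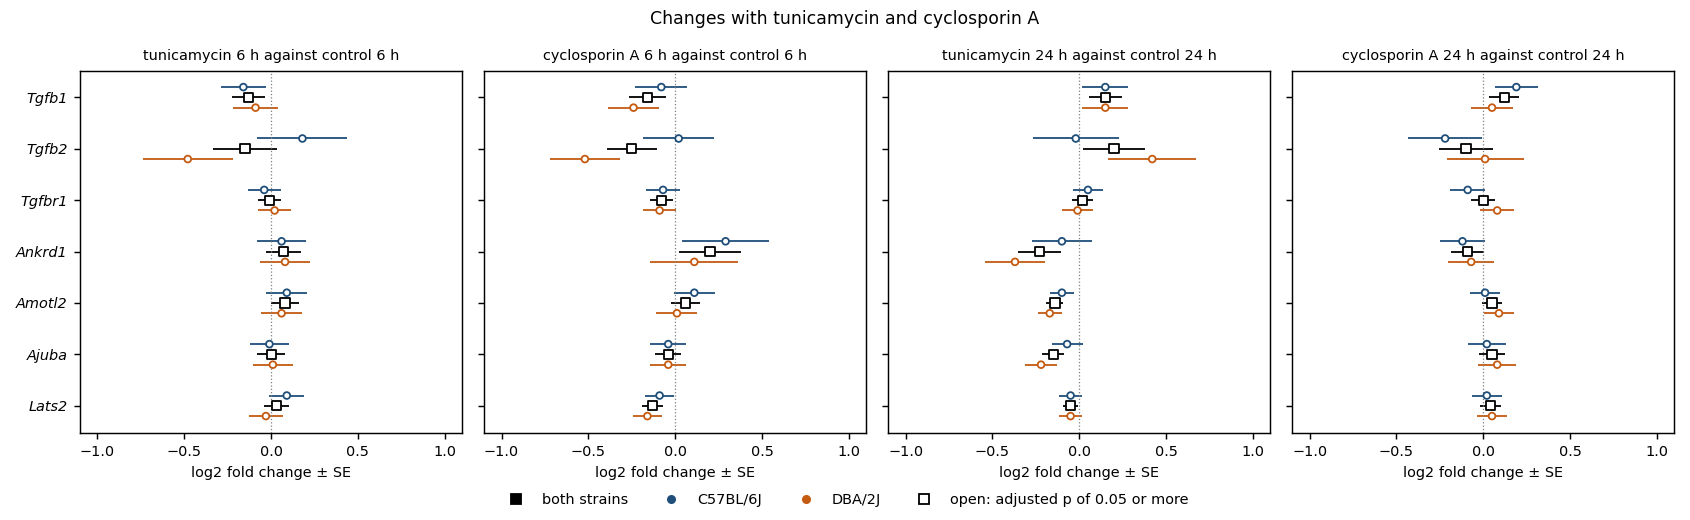
Log2 fold change with its standard error for the 7 genes under each drug against controls of the same time, all panels on 1 scale. Squares are the mean over both strains, circles single strains, and all squares are open because no mean passed the adjusted threshold of 0.05. The means lie between -0.25 and 0.20.

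The strains differed in some members, and most under normoxia. There DBA/2J slices held less of 5 members, beside 46.8% of all genes called and 18.5% called lower in DBA/2J. The log2 difference was -1.15 for Tgfb2 (SE 0.266, edgeR adjusted p = 0.00331) and -0.32 for Tgfbr1 (SE 0.0814, edgeR adjusted p = 0.00474), both without overlap between the strains' libraries given above. Amotl2 was lower by -0.45 (SE 0.127, edgeR adjusted p = 0.0101), which became 0.0572 without DBA/2J normoxia replicate 1. Ankrd1, at -1.40 (SE 0.466, edgeR adjusted p = 0.0299), overlapped between strains and lost its call without C57BL/6J replicate 2 (edgeR adjusted p = 0.119) or 3 (edgeR adjusted p = 0.0941) or DBA/2J replicate 1 (edgeR adjusted p = 0.107) or 3 (edgeR adjusted p = 0.053). Lats2, at -0.34 (SE 0.123, edgeR adjusted p = 0.0336), lost it without C57BL/6J replicate 2 (edgeR adjusted p = 0.0748) or 3 (edgeR adjusted p = 0.125) or DBA/2J replicate 1 (edgeR adjusted p = 0.17). Markers differed between these groups as well. Mean sums in C57BL/6J and DBA/2J were 14890 and 4996 CPM for distal nephron, 152 and 48.9 for smooth muscle and 148 and 66 for fibroblast markers. They were 682 and 401 CPM for endothelial, 923 and 525 for podocyte and 150 and 115 for immune markers. Proximal tubule markers went the other way, at 5624 and 11026 CPM. The part of these shifts in the strain differences was not tested.

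Tgfb2 also differed in other conditions. Under normoxia-hyperoxia DBA/2J lay below C57BL/6J by -1.21 (SE 0.222, edgeR adjusted p = 0.00135), without overlap, and it was the 1 member called there beside 25.7% of all genes. In 24 h controls it was again the 1 member called, beside 22.2% of all genes, at -0.62 (SE 0.207, edgeR adjusted p = 0.0442). That call was lost in 6 fits without a single library, with edgeR adjusted p up to 0.129 without DBA/2J control replicate 2, under totals only (edgeR adjusted p = 0.0545) and in the single fit of 48 libraries (edgeR adjusted p = 0.0873). In 6 h controls its difference was 0.12 (SE 0.198, edgeR adjusted p = 0.695). There Ankrd1 was lower in DBA/2J by -0.55 (SE 0.124, edgeR adjusted p = 0.00481) and Amotl2 by -0.32 (SE 0.0797, edgeR adjusted p = 0.00873), 2 members beside 26.2% of all genes. The call of Ankrd1 was lost in a single fit of all 48 libraries, at -0.57 (edgeR adjusted p = 0.0738). That of Amotl2 was lost under totals only, at -0.18 (edgeR adjusted p = 0.108), and with no filter on low counts, at -0.29 (edgeR adjusted p = 0.0605). Marker sums differed between the strains in these conditions too. That of proximal tubule markers was higher in DBA/2J without overlap in each of them, and the part of such shifts was not tested.

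Few responses differed between the strains when the difference itself was tested. Against 24 h controls the fall of Amotl2 under normoxia was larger in DBA/2J (log2 -1.84, SE 0.105) than in C57BL/6J (log2 -1.40, SE 0.103). The interaction was -0.44 (SE 0.144, edgeR adjusted p = 0.047), 1 member beside 17% of all genes. It was lost without any 1 of 6 libraries, namely C57BL/6J control replicates 1 (edgeR adjusted p = 0.0854) and 2 (edgeR adjusted p = 0.083), C57BL/6J normoxia replicates 2 (edgeR adjusted p = 0.11) and 3 (edgeR adjusted p = 0.092) and DBA/2J normoxia replicates 1 (edgeR adjusted p = 0.09) and 2 (edgeR adjusted p = 0.0826). Against 6 h controls the fall of Tgfb2 under normoxia was -1.86 (SE 0.211) in DBA/2J and -0.56 (SE 0.198) in C57BL/6J. The interaction of -1.30 (SE 0.289, edgeR adjusted p = 0.0234) stood beside 3.66% of all genes. It was lost without C57BL/6J control replicate 3 (edgeR adjusted p = 0.0557), DBA/2J control replicate 1 (log2 -1.04, edgeR adjusted p = 0.0507), C57BL/6J normoxia replicate 2 (edgeR adjusted p = 0.0555) or DBA/2J normoxia replicates 1 (edgeR adjusted p = 0.0647) or 2 (edgeR adjusted p = 0.0557). In the other comparisons edgeR called 0 members in the interaction, beside 0.69% of all genes for culture time, 1.43% for normoxia-hyperoxia against 24 h controls, 18.2% for it against normoxia, 0.232% for it against 6 h controls and 0% for each drug and time. With the replicate number as a block, the difference between normoxia-hyperoxia and normoxia did differ by strain for Amotl2 (log2 0.46, edgeR adjusted p = 0.0164) and Ankrd1 (log2 1.38, edgeR adjusted p = 0.041), both larger in DBA/2J. Members with an unadjusted p under 0.05 numbered 3 for culture time, 0 for normoxia-hyperoxia against 24 h controls, 2 for it against normoxia and 3 for it against 6 h controls.

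Across the 16 group means, as a description of groups that share strains and culture, the members fell into patterns. Log2 levels of Tgfb1, Amotl2 and Lats2 ran close together, with Pearson r of 0.96 for Tgfb1 with Lats2, 0.95 for Amotl2 with Lats2 and 0.94 for Tgfb1 with Amotl2. Ankrd1 followed Amotl2 at 0.90. Ajuba followed Tgfb1 at 0.87 but Ankrd1 only at 0.60. Tgfbr1 ran against Ajuba at -0.68, and Tgfb2 stood apart, with r between -0.23 and 0.48 to the other members. Ligand 1 and its receptor gene were at -0.49.

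The 3 genes most like each member were found among 12251 genes by the same r over 16 group means. Ankrd1 was closest to Fosl2, an AP-1 subunit gene (r = 0.995), Flnc, which encodes filamin C (0.991), and Nt5dc3 (0.991). Ajuba was closest to Ppie (0.995), Tbc1d12 (0.992) and the glycolytic gene Pgk1 (0.991). Tgfb1 was closest to Procr, the endothelial protein C receptor gene (0.986), Inf2, a formin gene (0.984), and Esyt1 (0.983). Amotl2 was closest to Spire1, an actin nucleator gene (0.986), Enc1 (0.985) and Ppp1r18 (0.982), and Lats2 to Rbms1 (0.984), Tfap2a (0.984) and Gas7 (0.975). The likeness was lower for Tgfb2, with Rragd (0.959), Foxp1 (0.944) and Socs2 (0.942), and for Tgfbr1, with Ikzf2 (0.934), Mylip (0.921) and Bmpr1b (0.921).

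**Figure D5:**
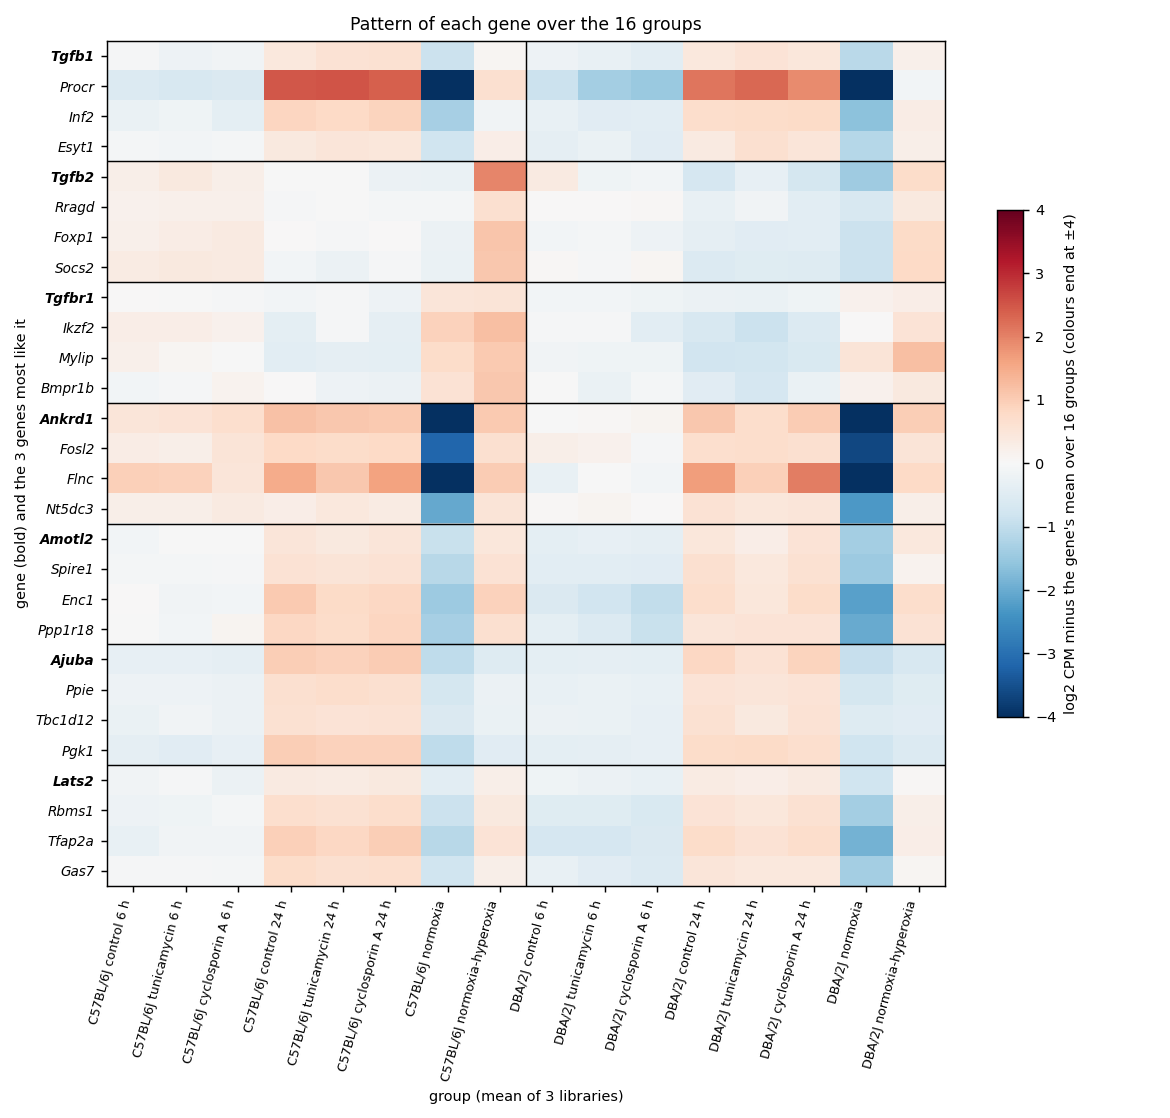
Mean log2 CPM of each gene in the 16 groups (columns), less the gene's own mean over the groups, for the 7 genes (bold) and the 3 genes most like each (rows). Red is above and blue below the gene's mean, and colours end at ±4. Under normoxia the columns are blue for Ankrd1 and its likes, while the block of Tgfb2 is reddest under normoxia-hyperoxia.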

How the data were processed

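Kidney slices of 2 mouse strains were profiled by stranded mRNA sequencing, and the authors deposited 1 table of whole-number read counts per gene, not normalized. Per the submitters' processing notes, bcl2fastq 2.20.0, FastQC 0.11.8, STAR 2.7.9a, featureCounts 1.5.1 and the build GRCm38 were used. The counting's strand setting and annotation release are not given in the sources used here. Groups came from the sample labels.

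The 7 genes, the pathway and marker lists and the rule for naming genes were chosen with earlier results of these data known. The rule names up to 3 called genes each way per list with a mean log2 CPM of at least 1, and the 3 genes most alike per member. One gene that the rule names is not reported here. Each comparison was fitted on its 12 libraries in 4 groups with edgeR 4.0.16 (R 4.3.3, limma 3.58.1): TMM factors, filterByExpr, robust quasi-likelihood F tests for both strains together, each strain and the interaction, and Benjamini-Hochberg adjustment over all genes tested at 0.05. The SE was derived from the fold change and F, and 95% intervals use 8 residual degrees of freedom. CPM was computed from the count totals. With TMM factors 46 of 112 group levels moved by over 1 SD (0.862 to 1.13 times), and with totals that leave out mitochondrial genes 51 of 112 did (1.04 to 1.32 times). Group means for likeness used TMM and a prior count of 2. The fits were tested on simulated data. The 8 comparisons planned were joined by 2 against 6 h controls, added after the levels had been seen. Alternatives were median-ratio factors, totals only, no filter, DESeq2 1.42.0, a single fit of all 48 libraries, a replicate block and each library left out. Replicate numbers were not treated as pairs, since in no comparison were all same-numbered pairs of both strains correlated over 0.1. This rule is strict and can miss a pairing. By strain, every library was closest to its own number in 8 of 20 sets.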

Additional observations from a re-analysis of the deposited data

Results flagged for a closer look

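The response of Amotl2 to normoxia passed the test of a strain difference, as did that of 17% of all genes, so 1 of 7 members called is near the background. The log2 interaction against 24 h controls, DBA/2J minus C57BL/6J, was -0.44 (SE 0.144, edgeR adjusted p = 0.047), with log2 changes of -1.84 in DBA/2J and -1.40 in C57BL/6J. The response of Tgfb2 to normoxia against 6 h controls passed the same test, beside 3.66% of all genes, with an interaction of -1.30 (SE 0.289, edgeR adjusted p = 0.0234) from changes of -1.86 and -0.56. The latter comparison was added after the levels had been seen, and the calls were lost in 6 fits without 1 library for Amotl2 (edgeR adjusted p up to 0.11) and in 5 for Tgfb2 (edgeR adjusted p up to 0.0647).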

How the results depend on the processing

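Every member called over both strains in the oxygen and culture-time comparisons kept its direction under all alternatives, and only the calls of Tgfb1 under normoxia-hyperoxia were lost, in fits without 1 library (log2 change -0.34 to -0.19 against 24 h controls, 0.24 to 0.39 against 6 h controls). Scaling by totals only reversed the uncalled Tgfbr1 at 24 h of cyclosporin A (0.02) and over culture time (0.10). With no filter on low counts, cyclosporin A changed 4 genes at 6 h and 3 at 24 h, and tunicamycin 395 at 24 h; with DESeq2 these were 45, 22 and 526, and 3 for cyclosporin A at 24 h in the single fit of 48 libraries. The tunicamycin interaction at 6 h held 1 gene with no filter and 1 with DESeq2.

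Interactions depended most on the setting. With no filter, genes called numbered 1156 for normoxia-hyperoxia against 24 h controls (main 247), 817 for culture time (117), 1536 for normoxia against 6 h controls (616) and 712 for normoxia-hyperoxia against 6 h controls (39). With DESeq2 they numbered 661, 339, 1167 and 252. The single fit gave 409 for the first and 100 for the last. Members called in an interaction rose to 2 with no filter for normoxia against either control (Ankrd1 added), and to 1, Tgfb2, for normoxia-hyperoxia against 6 h controls with no filter and with DESeq2. For normoxia-hyperoxia against normoxia they numbered 1 with totals only, 2 with no filter and 2 in the single fit. Strain calls of members fell to 1 in 6 h controls (totals only, no filter, single fit) and to 0 in 24 h controls (totals only, single fit). The cause was not tested.

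The labels do not say that replicate numbers pair libraries. Of 6 same-numbered pairs per comparison at most 5 had residuals correlated over 0.1, with mean r of 0.0137 to 0.179. Taken by strain, all 3 pairs were over 0.1 in 6 of 20 sets, and every library was closest to its own number in 8, a hint from the data and not from the design. With the replicate block, interaction genes numbered 618 for normoxia-hyperoxia against 24 h controls, 71 for culture time and 1462 for normoxia against 6 h controls, and 2 members were called for normoxia-hyperoxia against normoxia.

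Leaving out each library gave 0 to 1 genes for cyclosporin A at 6 h and 78 to 344 for tunicamycin at 24 h. Interaction genes ranged from 1860 to 2700 (normoxia) and 103 to 524 (normoxia-hyperoxia) against 24 h controls, from 46 to 226 (culture time), and from 241 to 1125 (normoxia) and 11 to 80 (normoxia-hyperoxia) against 6 h controls. Members called for normoxia-hyperoxia against 6 h controls ranged from 5 to 7. Interaction members ranged from 0 to 2 for normoxia against either control and from 0 to 1 for normoxia-hyperoxia against normoxia. Members differing between strains ranged from 0 to 1 in 24 h controls, 2 to 5 under normoxia and 1 to 2 under normoxia-hyperoxia. Uncalled log2 values that crossed 0 were, at 6 h of tunicamycin, Tgfbr1 (-0.05 to 0.02), Amotl2 (-0.00 to 0.13), Ajuba (-0.05 to 0.06) and Lats2 (-0.01 to 0.08); at 6 h of cyclosporin A, Ajuba (-0.07 to 0.02); at 24 h of tunicamycin, Tgfbr1 (-0.02 to 0.06); at 24 h of cyclosporin A, Tgfb2 (-0.18 to 0.01), Tgfbr1 (-0.05 to 0.03), Ajuba (-0.00 to 0.11) and Lats2 (-0.00 to 0.08); and Amotl2 under normoxia-hyperoxia against 24 h controls (-0.10 to 0.01). Depth limits Ankrd1 most, at 13 counts in its lowest library.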
